A study of Mus musculus with 15 samples.

Results

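Thymic iNKT cells were compared with iNKT cells of 3 peripheral lymphoid organs, each organ given equal weight. The comparison used 15 RNAseq libraries, 4 from thymus and 11 from the periphery (4 from spleen, 4 from mesenteric lymph node (mLN) and 3 from inguinal lymph node (iLN)). All cells came from WT C57BL/6 mice aged 6 weeks, without treatment, and were sorted as positive for CD1d-tetramer and TCRβ and negative for B220, CD11b, CD11c and CD8. The labels call the replicates biological but do not say whether each is 1 mouse or a pool, and iLN replicate 1 was not analysed here. A gene was called when its adjusted p in edgeR's quasi-likelihood test, with batch as a factor, was under 0.01 and its fold change was over 1.5. Of the 13600 genes tested, 247 were called between thymus and the mean of the 3 organs (1.82%), 140 higher in thymus (1.03%) and 107 lower (0.787%). Of these, 239 (1.76% of all tested) differed in the same direction from spleen, from mLN and from iLN, 136 higher (1%) and 103 lower (0.757%). This direction is the sign of the fitted difference only. For 54 of the 239 (30 higher and 24 lower) the smallest of the 3 differences was under 1.5-fold, and for Plec, Sgk3 and Ccr9, named for this count, the mean level in thymus was not beyond that of every organ. In a stricter set, 51 of the 239 (0.375%) were also called against each organ on its own, 30 higher (0.221%) and 21 lower (0.154%). The 3 comparisons with single organs share the thymus libraries, so they are not independent of each other.

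iNKT cells are T cells with a semi-invariant T cell receptor that sees lipids on CD1d. They are selected in the thymus by double-positive thymocytes and divide into NKT1, NKT2 and NKT17 subsets, of which NKT1 cells take on receptors and effector molecules of NK cells. Some mature iNKT cells stay in the thymus for long periods, whereas others leave through the blood and settle in peripheral organs.

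Thymus libraries held between 1152702 (replicate 2) and 8161474 counts, and peripheral libraries between 4080550 and 8670570. LNs were digested with enzymes before sorting, while thymus and spleen were pressed through a strainer, a difference that separates the organs but not thymus from all of them. The identity of the cells was checked with 10 genes of iNKT cells (among them Cd3e, Zbtb16, Tbx21 and Il2rb). Their summed level was between 3590 and 4760 normalized CPM (counts scaled to the size of the library) in thymus and between 3050 and 4990 in the periphery, and none of the 10 was called in edgeR or DESeq2 (5 had an unadjusted p under 0.05 in edgeR). In bulk samples such as these, fewer cells that express a gene and less of its RNA per cell cannot be told apart.

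**Figure D1:**
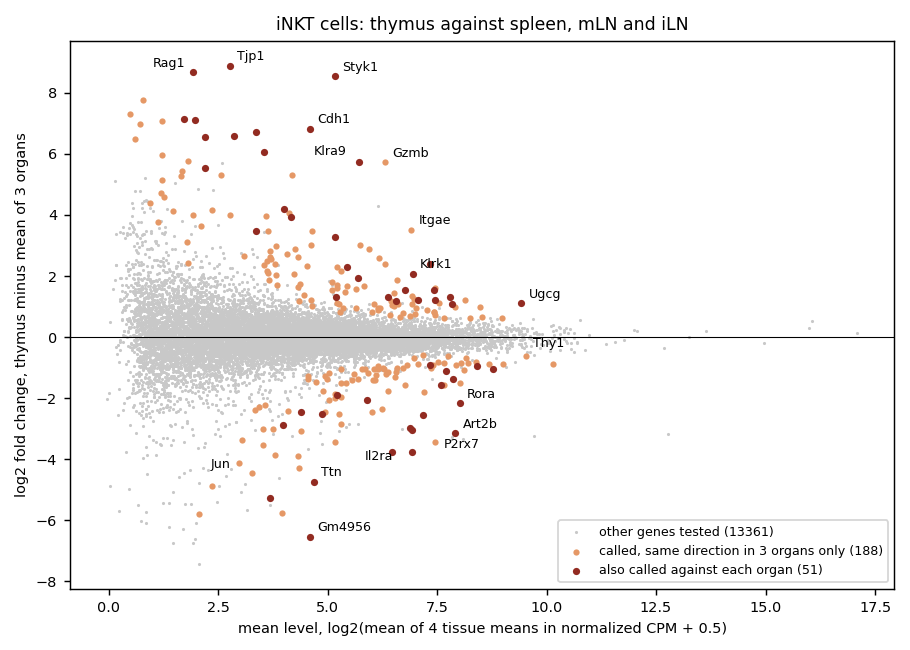
Each point is 1 of the 13600 genes tested, with its mean level over the 4 tissues on the horizontal axis (log2 of CPM plus 0.5) and its log2 fold change between thymus and the mean of the 3 organs on the vertical axis. Orange points are the 188 genes called in the same direction in all 3 organs only, and dark red points are the 51 genes that were also called against each organ, from Tjp1 at 8.89 to Gm4956 at −6.54.

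The median size of the log2 fold change was 2.09 for the 136 genes higher in thymus and 1.5 for the 103 lower genes, and 71 and 40 of them differed by more than 4-fold. These genes were selected for a fold change over 1.5, so their sizes follow in part from that threshold. The signed median log2 fold change over all genes tested, a different measure, was −0.01. Every thymus library lay above all 11 peripheral libraries for 87 of the 136 genes, where 0.912% of all genes did so, and below them for 52 of the 103, where 0.559% of all genes did so. Between spleen, mLN and iLN themselves, 29 of the 136 and 33 of the 103 had an adjusted p under 0.01 in edgeR's test, beside 1.88% of all genes. The organ nearest to thymus was spleen for 59, iLN for 52 and mLN for 25 of the higher genes, and spleen for 40, iLN for 36 and mLN for 27 of the lower genes. When each organ in turn was set against the equally weighted mean of the other three, 214 genes differed in the same direction for iLN, 129 for spleen and 73 for mLN, against 239 for thymus. The counts called against each of the other organs were 15 for iLN, 19 for spleen, 5 for mLN and 51 for thymus. Without thymus replicate 1, 2, 3 or 4, the genes called against each organ numbered 29, 31, 25 and 28.

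Tjp1, Rag1, Styk1, Cd244a, Klra13-ps and Cdh1 had the highest log2 fold changes among the genes called against each organ with a mean of at least 10 CPM. Tjp1 (ENSMUSG00000030516, chromosome 7 of GRCm38 from 65296165 to 65527781), the tight junction scaffold ZO-1, was at 19.9, 31.6, 25.3 and 23.5 CPM in the 4 thymus libraries and between 0 and 0.407 (median 0) in the 11 peripheral ones. Only 3 counts fell on it in the whole periphery against 420 in thymus, a ratio of pooled levels of 499 (95% exact interval 170 to 2430, for counting error only). Its fitted log2 fold change was 8.89 (SE 0.71, edgeR adjusted p = 6.31e-07).
Styk1 (ENSMUSG00000032899, chromosome 6 from 131299142 to 131353597), a kinase-like membrane protein of NK cells, was at 139, 175, 111 and 133 CPM in thymus and between 0 and 2.74 (median 0.580) in the periphery. Its difference of 8.54 on the log2 scale (SE 0.34, edgeR adjusted p = 1.36e-11) was 6.97 against spleen, 8.01 against mLN and 10.62 against iLN. Cdh1 (ENSMUSG00000000303, chromosome 8 from 106603351 to 106670246), which encodes the adhesion molecule E-cadherin, was at 80.0, 82.3, 100 and 106 CPM in thymus and between 0 and 4.24 (median 0.342) in the periphery, a difference of 6.82 on the log2 scale (SE 0.49, edgeR adjusted p = 9.28e-08). For all 3 genes the lowest thymus library was several times above the highest peripheral one. The log2 fold change of Tjp1 was 9.67 without spleen replicate 4, and that of Styk1 was 9.20 without iLN replicate 4.

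Rag1 (ENSMUSG00000061311, chromosome 2 from 101638282 to 101649501), a subunit of the recombinase of antigen receptor genes, was at 19.2 and 22.1 CPM in thymus replicates 1 and 2 and at 5.51 and 5.88 in replicates 3 and 4, which form the other batch. In the periphery 1 count was found against 237 in thymus (ratio of pooled levels 844, 95% exact interval 150 to 33500). The fitted log2 fold change was 8.67 (SE 0.80, edgeR adjusted p = 1.42e-05), and with 2 thymus libraries in each batch the call was lost in either batch alone (adjusted p = 0.0192 and 0.0103). Of other genes of double-positive thymocytes, Mns1 was at 46.28, 49.25, 21.21 and 23.91 CPM in thymus and between 6.24 and 21.4 in the periphery. Cd8a was between 2.85 and 20.6 CPM in thymus (highest in replicate 2) and between 0.342 and 8.98 in the periphery. For Cd8b1 and Ptcra the highest values were 5.88 and 2.21 CPM in thymus and 5.13 and 2.25 in the periphery. Rag2, Dntt and Arpp21 were at low levels. In thymus Rag2 was between 0 and 0.735 CPM, Dntt, the terminal transferase, between 1.52 and 13.2 (highest in replicate 2), and Arpp21 between 0.551 and 8.82, and their highest peripheral values were 0.171, 1.74 and 0.888. Over all 10 marker genes of double-positive thymocytes, Rag1 included, the summed level was between 126 and 238 CPM in thymus and between 111 and 153 in the periphery, and none of the 10 was at 0 counts in either. The largest part of this sum was Rmnd5a, at between 85.9 and 146 CPM in thymus and between 94.6 and 137 in the periphery. The part of double-positive thymocytes in the result for Rag1 was not tested.

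The 10 highest genes also included Cd244a, Klra13-ps, Fgd5, Klra5, Klra6 and Kcnj8, of which Cd244a and the Klra genes are NK cell receptor genes or a pseudogene of that family. Kcnj8, a potassium channel subunit, was at 51.5, 42.6, 31.4 and 39.8 CPM in thymus and between 0 and 4.73 (median 1.04) in the periphery (log2 fold change 6.05, SE 0.62, edgeR adjusted p = 5.41e-06). Fgd5, an exchange factor for the GTPase Cdc42, was between 18.0 and 46.9 CPM in thymus and between 0 and 11 in the periphery, where mLN replicate 4 alone reached that level. In iLN no count was found for Tjp1, Rag1, Fgd5, Cd244a or Klra13-ps, and for Rag1 none in mLN either. At a floor of 3 counts over all libraries of the organ, thymus was then at least 126-fold higher than iLN for Tjp1, at least 171-fold for Fgd5, at least 66.4-fold for Rag1, at least 54.2-fold for Cd244a and at least 65.7-fold for Klra13-ps. The fitted fold changes of these 5 genes depend on the prior count of the model. The log2 fold change of Klra5 (6.59) was 7.72 without mLN replicate 3 and 7.27 without iLN replicate 2, and that of Klra6 (6.55) was 5.92 without thymus replicate 1. Of 17 tested genes of immature thymocytes (21 listed), Rag1 rose and Themis and Ccr9 fell, with a median log2 fold change of −0.03 (1% of all genes rose and 0.757% fell in this way).

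**Figure D2:**
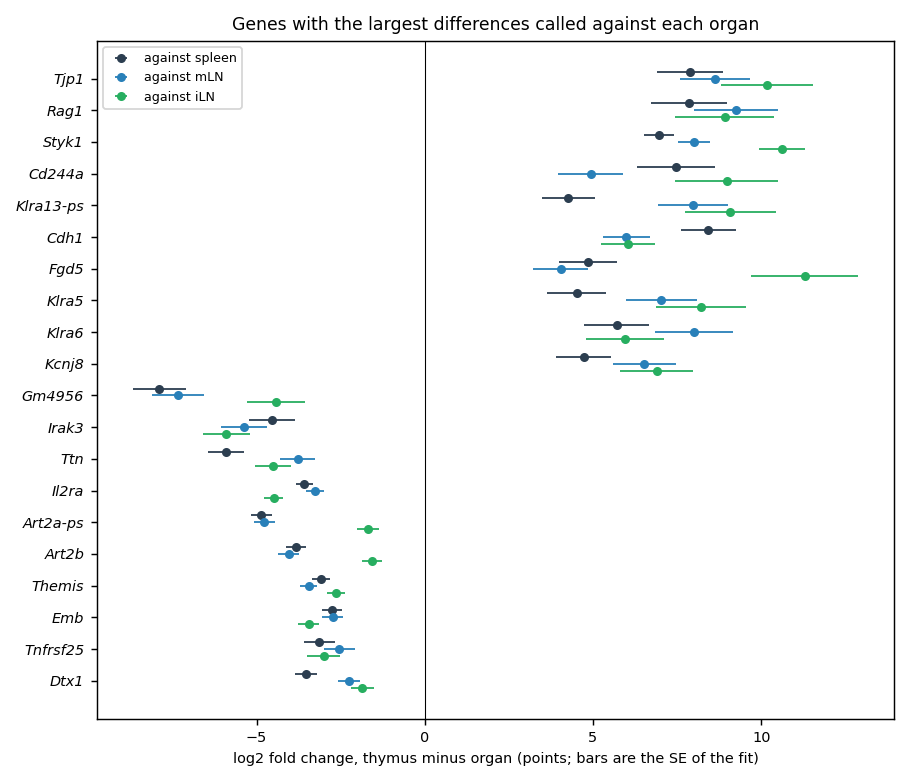
Log2 fold change of thymus against spleen (dark), mLN (blue) and iLN (green), with the SE of the fit as bars, for the 10 genes most raised and the 10 most lowered among those called against each organ. The points of each gene lie on the same side of 0, and Art2a-ps and Art2b sit nearest to 0 in iLN, at −1.68 and −1.57.

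Genes for NK cell receptors held more called genes than any other of the 20 lists examined. Of 27 listed genes, 24 passed the filter on low counts. Of these, 17 rose in thymus in the same direction in all 3 organs and none fell, beside 1% and 0.757% of all genes. Called against each organ were 9 of the 17, and 0.221% of all genes were higher in this way. Members such as Klra6 and Cd244a, at most 0.7475 and 0.6241 CPM in the periphery, passed the filter through their thymus libraries. They could only come out higher, and the list was chosen with earlier results of these data known. The median log2 fold change of the 24 was 3.71 (also 3.71 with Klra10, which had no count in the periphery, at its bound), beside −0.01 for all genes.
Klrk1 (ENSMUSG00000030149, chromosome 6 from 129610323 to 129623864), the activating receptor NKG2D, was at 270, 293, 262 and 266 CPM in thymus and between 25.4 and 120 (median 76.7) in the periphery, a difference of 2.07 on the log2 scale (SE 0.14, edgeR adjusted p = 6.28e-08). Klrd1, or CD94, which pairs with NKG2 chains, was at 123, 99.2, 85.9 and 98.7 CPM in thymus and between 1.9 and 35.1 (median 10.5) in the periphery (log2 fold change 3.28, SE 0.26, edgeR adjusted p = 2.02e-07). Fcer1g (ENSMUSG00000058715, chromosome 1 from 171229572 to 171234365), the signalling chain shared by Fc receptors and NK receptors, was at 58.1, 77.9, 46.5 and 48.8 CPM in thymus and between 1.35 and 7.23 (median 3.59) in the periphery (log2 fold change 3.94, SE 0.30, edgeR adjusted p = 1.76e-07). No thymus library overlapped the periphery for these 3 genes. Among peripheral organs, Klrk1 was lowest in mLN, at 30.8 ± 4.82 CPM (SD, n = 4), and at 101 ± 22.0 in spleen (n = 4) and 88.1 ± 23.8 in iLN (n = 3). Klrb1c, the marker NK1.1, rose less, from between 131 and 359 CPM in the periphery to between 421 and 514 in thymus (log2 fold change 1.22, SE 0.12, edgeR adjusted p = 3.46e-06).

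The Ly49 receptors, coded by Klra genes, bind MHC class I, and their genes are so alike that the split of reads between them is uncertain. Their sum is not affected by that split. Over the 14 Klra genes the summed level was between 268 and 394 CPM in thymus, between 8.54 and 20.6 in spleen, between 7.39 and 8.86 in mLN and between 7.04 and 10.3 in iLN. The gene to which most of it was assigned in thymus was Klra9, under that uncertain split, at 229, 156, 190 and 209 CPM against between 0.145 and 14.4 (median 3.42) in the periphery (log2 fold change 5.72, SE 0.48, edgeR adjusted p = 9.24e-07). Klra1, Klra3, Klra5, Klra6, Klra7 and Klra10 were also called. Klra10 was between 3.03 and 7.16 CPM in thymus and had no count in any peripheral library, so that thymus was at least 107-fold higher at a floor of 3 counts over the periphery. The NKG2 genes Klrc1, Klrc2 and Klrc3, also near copies of each other, had summed levels between 240 and 256 CPM in thymus, between 106 and 165 in spleen, between 13.7 and 70.8 in mLN and between 31.7 and 44.5 in iLN. The receptor genes Klre1 and Klri2 and the SLAM family receptor gene Cd244a rose as well, with log2 fold changes of 4.18, 3.96 and 7.13. Single thymus libraries decided 4 of the 17 calls: that of Klrc3 was lost without any one thymus library (edgeR adjusted p between 0.0102 and 0.0157), that of Klra7 without replicate 1 or 4 (edgeR adjusted p = 0.0127 and 0.0101), that of Klrc1 without replicate 1 or 3 (edgeR adjusted p = 0.0116 and 0.0195) and that of Klra10 without replicate 1 (edgeR adjusted p = 0.0116). Without mLN replicate 1 the log2 fold changes of Klrc3 and Klri2 were 5.73 and 4.56, against 4.59 and 3.96 with it, and that of Klra7 was 4.89 without mLN replicate 4, against 4.17 with it. Of the further members, Cd160 was at 57.0 CPM in thymus and 68.0 in the periphery and was not called. Thymus (between 47.05 and 71.07 CPM) lay below spleen (97.42 to 146.5) and above iLN (23.57 to 29.25) in Cd160. Ncr1 and Eomes, genes of conventional NK cells picked here after their values were seen, were between 0 and 0.864 and between 0 and 1.47 CPM in thymus and between 0 and 2.17 and between 0 and 3.59 CPM in the periphery.

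Genes for effector molecules of cytotoxic cells were also higher in thymus. Of 14 listed genes 12 passed the filter, 7 rose in the same direction in all 3 organs and none fell, beside 1% and 0.757% of all genes (median log2 fold change 1.12, beside −0.01 for all genes).
Gzmb (ENSMUSG00000015437, chromosome 14 from 56258838 to 56262260), the serine protease granzyme B, was at 390, 276, 260 and 278 CPM in thymus and between 0.416 and 16.5 (median 4.96) in the periphery. Its log2 fold change was 5.72 (SE 0.71, edgeR adjusted p = 6.76e-04), and 6.52 without mLN replicate 1 and 6.79 without iLN replicate 4, the peripheral libraries with the highest levels. Spleen, mLN and iLN did not differ in Gzmb beyond their spread (edgeR adjusted p = 0.987). Gzma, or granzyme A, was at 45.2, 69.1, 60.6 and 60.9 CPM in thymus and between 0 and 12.6 (median 1.31) in the periphery (log2 fold change 5.31, SE 0.49, edgeR adjusted p = 1.10e-06), and spleen was nearest, at 10.7 ± 1.57 (SD, n = 4). Nkg7, a granule membrane protein, was between 307 and 367 CPM in thymus and between 24.8 and 225 in the periphery (log2 fold change 1.60, SE 0.19, edgeR adjusted p = 3.15e-05). Ctsw, the protease cathepsin W, was the member called against each organ (log2 fold change 1.17, SE 0.17, edgeR adjusted p = 2.26e-04), though its thymus and peripheral libraries overlapped. Fasl was between 65.66 and 112.9 CPM in thymus and between 74.92 and 87.71 in spleen, with overlap. The death ligands Fasl and Tnfsf10 and the granzyme Gzmc were near the threshold, and single libraries decided their calls. That of Fasl was lost without thymus replicate 2, 3 or 4, spleen replicate 2 or 4, or mLN replicate 4 (log2 fold change between 0.66 and 0.83). That of Tnfsf10 was lost without any library but mLN replicates 1 and 2 and iLN replicate 3 (between 0.62 and 0.82). That of Gzmc was lost without any library but thymus replicate 2, spleen replicates 1 and 2 and mLN replicates 1 and 2 (between 3.60 and 4.07), and its log2 fold change was 4.52 without mLN replicate 2. Srgn, the proteoglycan of granules, was at 263 CPM in thymus and 307 in the periphery and was not called.

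**Figure D3:**
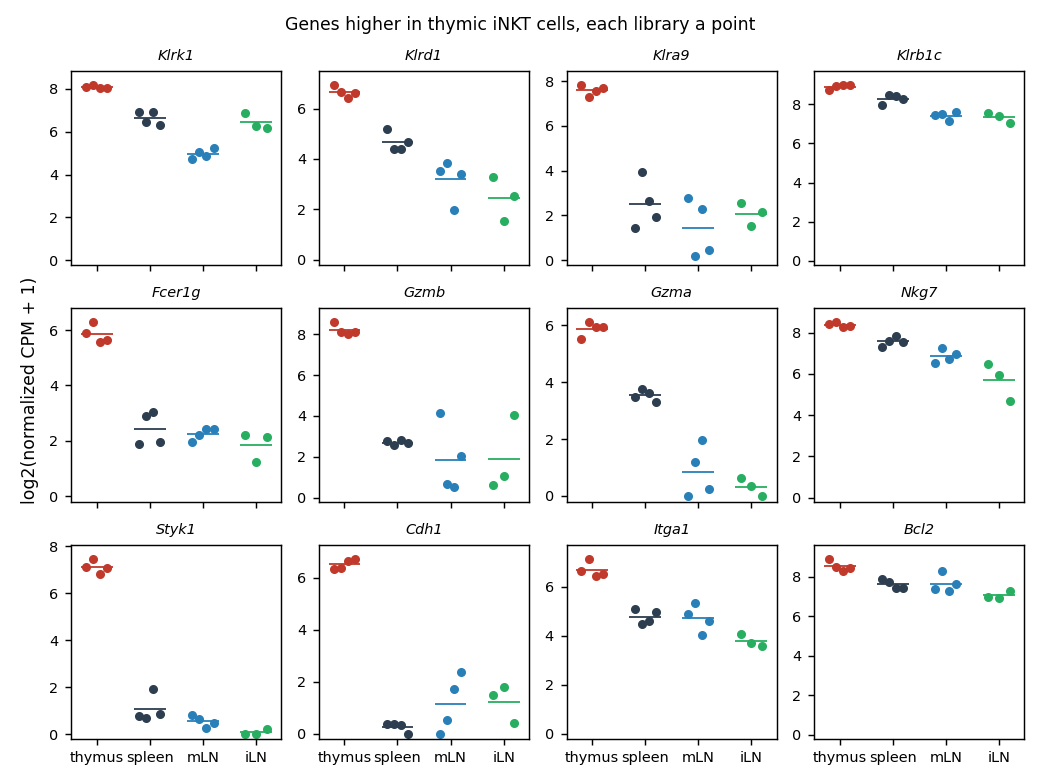
Levels of 12 genes higher in thymus as log2 of normalized CPM plus 1, with 1 point per library and a line at the mean of each tissue. In every panel the 4 thymus libraries lie above all 11 peripheral libraries, from Bcl2 and Klrb1c with small gaps to Styk1 and Cdh1, which are near 0 outside the thymus.

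The program of NKT1 cells overlaps these lists, and 9 of its 17 tested genes (20 listed) rose and 1 fell (median log2 fold change 0.81, and beside 1% and 0.757% of all genes). Besides Klrb1c, Klrd1, Klrk1, Nkg7, Gzma, Gzmb and Fasl they were Il12rb2, a chain of the IL-12 receptor, and Xcl1, a chemokine. For Fasl and Xcl1 the levels of thymus and spleen libraries overlapped. Il12rb2 was at 221, 246, 186 and 211 CPM in thymus and between 42.2 and 139 (median 81.3) in the periphery (log2 fold change 1.35, SE 0.15, edgeR adjusted p = 1.13e-05). The chemokine gene Ccl5 went the other way, with between 16.9 and 29 CPM in thymus and 155 ± 73.2 (SD, n = 4) in spleen but 29.5 ± 9.56 (SD, n = 3) in iLN (log2 fold change −1.40, SE 0.22, edgeR adjusted p = 6.76e-04). Il2rb, at 1363 CPM in thymus and 1061 in the periphery, and Cxcr3, at 160 and 154 CPM, were not called.
Genes of NKT2 and NKT17 cells lay mostly below 0 and few were called (0.757% of all genes fell in the same direction in all 3 organs). Among 16 tested NKT2 genes (18 listed) 2 had a log2 fold change above 0, the median was −0.57, and Il6ra was the 1 gene called in the same direction in all 3 organs, a call lost without any library but mLN replicates 1 and 4 and iLN replicate 3 (log2 fold change between −1.57 and −1.25). Among 15 tested NKT17 genes (18 listed) 1 had a log2 fold change above 0 (Scart2, 5830411N06Rik in the files, named for this count, at 0.69 and not called) and the median was −1.85, but only Rora was called in the same direction in all 3 organs. Tcf7 and Slamf6, the latter named for this count, on the NKT2 list and Sdc1 on the NKT17 list were called against the mean of the organs but not in the same direction in all of them.

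Adhesion genes divided into both directions. Of 22 tested genes for E-cadherin binding, junctions and integrins (26 listed), Cdh1, Tjp1, Itgae and Itga1 rose and Itga4, Itgb3 and Cd226 fell, beside 1% and 0.757% of all genes (median log2 fold change −0.11). Itgae, the CD103 chain that binds E-cadherin, was at 219, 302, 286 and 241 CPM in thymus. It was nearly as high in iLN, at 164, 207 and 229 CPM, and low in spleen, at 4.44 ± 2.77 CPM (SD, n = 4), and mLN, at 14.0 ± 12 (SD, n = 4), so that its difference of 3.52 on the log2 scale (SE 0.30, edgeR adjusted p = 6.31e-07) was 5.78 against spleen, 4.32 against mLN and 0.47 against iLN. Itga1, the CD49a chain that binds collagen, was at 101, 140, 87.0 and 90.9 CPM in thymus and between 10.9 and 39.6 (median 23.4) in the periphery (log2 fold change 2.28, SE 0.19, edgeR adjusted p = 3.46e-07), and was called against each organ. Itgb3, the integrin β3 chain, was at 110, 101, 106 and 100 CPM in thymus and between 156 and 364 (median 273) in the periphery (log2 fold change −1.37, SE 0.17, edgeR adjusted p = 5.40e-05). Itga4, a homing integrin chain, was highest in mLN, at 458 ± 139 CPM (SD, n = 4), against 73.4 ± 30.1 (SD, n = 4) in thymus (log2 fold change −1.57, SE 0.19, edgeR adjusted p = 3.09e-05). Thymus, between 42.97 and 108.1 CPM, overlapped spleen (66.51 to 190.1) and iLN (105.9 to 184) in Itga4. Of the 12 marker genes of thymic epithelium, Cdh1 not being among them, 3 passed the filter and none was called (none had an unadjusted p under 0.05 in edgeR, and DESeq2 called none), and their summed level was between 36 and 70.8 CPM in thymus and between 35.1 and 104 in the periphery. Most of this sum was Ly75, at between 33.1 and 63.2 CPM in thymus and between 28.7 and 95.8 in the periphery. The keratin genes Krt5 and Krt14 and the epithelial factor Foxn1 had no count in any library, Cldn4 had none in thymus (at most 0.407 CPM in the periphery), Prss16 had none in the periphery (1.65 CPM in thymus replicate 3 and 0 in the others), and Epcam was between 0 and 2.48 CPM in thymus and between 0 and 3.85 in the periphery.

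Genes of egress and of residency also differed. S1PR1 senses the lipid that draws T cells out of the thymus, and the factors KLF2 and FOXO1 drive its gene. Of 14 tested egress and homing genes (15 listed) 4 fell and none rose, beside 0.757% and 1% of all genes (median log2 fold change −0.32).
S1pr1 was at 18.8, 11.8, 22.3 and 18.8 CPM in thymus and between 22.8 and 122 (median 45.9) in the periphery, without overlap (log2 fold change −1.42, SE 0.20, edgeR adjusted p = 2.09e-04). Foxo1 was between 93.9 and 164 CPM in thymus and between 162 and 327 in the periphery (log2 fold change −0.86, SE 0.13, edgeR adjusted p = 3.45e-04). Klf3 was close to thymus in iLN (−0.14 on the log2 scale) and its call was lost without thymus replicate 2, 3 or 4 (log2 fold change −0.76, −0.86 and −0.86). Klf2, which drives S1pr1, and Cd69, which opposes it, were named after their values were seen. Klf2 was at 11.7 CPM in thymus and 8.15 in the periphery, and Cd69 at 27.8 and 38, and neither was called (edgeR adjusted p = 0.659 and 0.513).
Of 21 tested residency genes (22 listed), 8 rose and 2 fell, beside 1% and 0.757% of all genes (median 0.58). The 8 were Cdh1, Itgae, Itga1, Rgs2, Ahr, Xcl1, Litaf and Zfp683, and the 2 were Cxcr6 and P2rx7. Zfp683, or Hobit, a factor of resident lymphocytes, was between 148 and 249 CPM in thymus and at a median of 90.7 and at most 189 in the periphery, with overlap (log2 fold change 1.07, SE 0.16, edgeR adjusted p = 4.27e-04, and 0.36 against spleen). Rgs2, which dampens G protein signalling, was between 115 and 174 CPM in thymus and between 27.5 and 137 in the periphery (log2 fold change 1.07, SE 0.16, edgeR adjusted p = 2.60e-04). The calls of Ahr and Litaf were lost without any one thymus library (log2 fold changes between 1.65 and 1.81 and between 2.23 and 2.47), that of Xcl1 without thymus replicate 1, 2 or 3 (between 0.84 and 0.99) and that of Cxcr6 without any one thymus library, spleen replicate 2 or mLN replicate 4 (between −0.98 and −0.76). The log2 fold change of Litaf was 2.93 without iLN replicate 4.

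**Figure D4:**
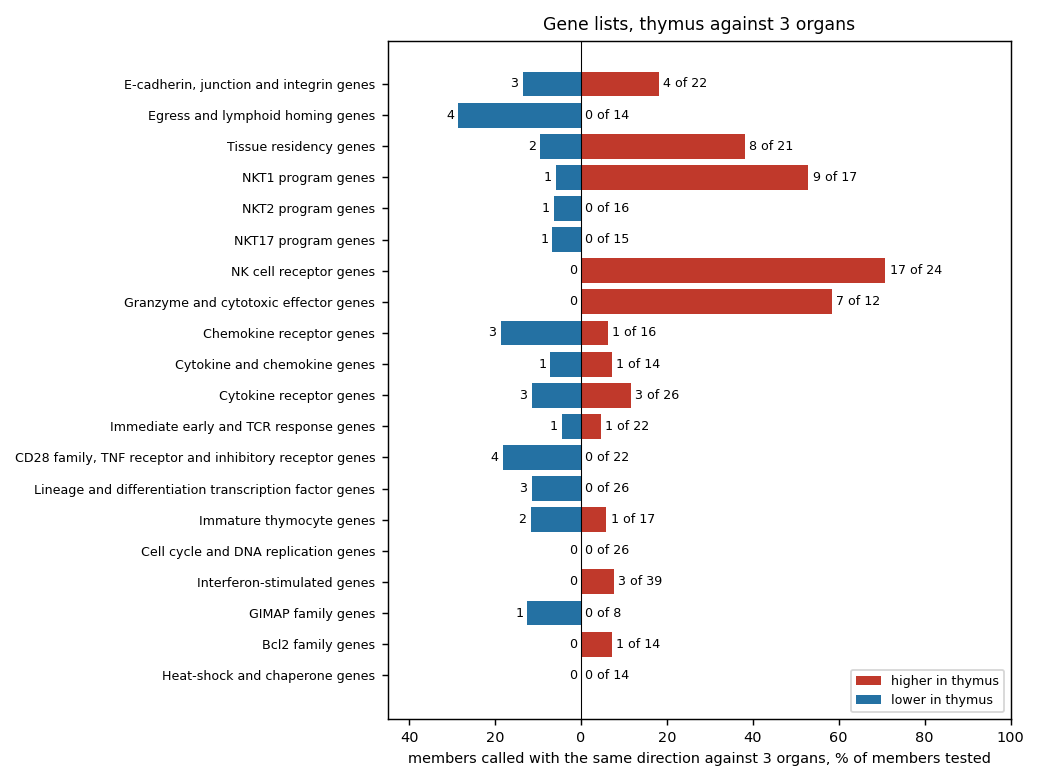
Bars give the share of the tested members of each of 20 gene lists that were called in the same direction in all 3 organs, to the right for higher in thymus and to the left for lower, with counts at the ends. The NK cell receptor genes reach 17 of 24 and the cytotoxic genes 7 of 12, and cell cycle and heat-shock genes have no call. Over all genes tested the shares are 1% higher and 0.757% lower.

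P2rx7 and Art2b code for linked surface proteins: ART2 enzymes attach ADP-ribose to the ATP receptor P2X7, which then opens and can kill the cell. Art2a-ps, of the same family, is annotated as a polymorphic pseudogene. All 3 genes were low in thymus, low to intermediate in iLN and high in spleen and mLN. P2rx7 (ENSMUSG00000029468, chromosome 5 from 122643911 to 122691432) was at 16.3, 13.2, 10.2 and 19.0 CPM in thymus, at 14.7, 43.4 and 84.0 in iLN, and at 310 ± 46.7 (SD, n = 4) in spleen and 323 ± 14.7 (SD, n = 4) in mLN. Its difference of −3.45 on the log2 scale (SE 0.32, edgeR adjusted p = 1.25e-06) was −4.38, −4.44 and −1.54 against spleen, mLN and iLN, and thymus overlapped iLN. Reads of Art2b and Art2a-ps, near copies of each other, were added up. Their sum was between 19.3 and 52.2 CPM in thymus, between 59.4 and 120 in iLN, between 369 and 709 in spleen and between 478 and 781 in mLN, without overlap of thymus and any organ. The 3 peripheral organs differed in all 3 genes (edgeR adjusted p = 1.70e-04 for P2rx7, 2.75e-04 for Art2b and 1.58e-05 for Art2a-ps). Both mLN and iLN were digested with enzymes that included a NADase, while spleen and thymus were not. In Art2b alone, thymus replicate 2 lay above iLN replicate 2.

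Gm4956, Irak3, Ttn and Il2ra had the lowest log2 fold changes among the genes called against each organ with a mean of at least 10 CPM, followed by Art2a-ps, Art2b, Themis, Emb, Tnfrsf25 and Dtx1. Il2ra (ENSMUSG00000026770, chromosome 2 from 11642807 to 11693193), the CD25 chain of the IL-2 receptor, was at 14.9, 5.14, 8.26 and 11.6 CPM in thymus and between 86.1 and 314 (median 118) in the periphery, a difference of −3.78 on the log2 scale (SE 0.24, edgeR adjusted p = 3.35e-08). Themis, a signalling protein needed for thymocyte selection, was at 16.8, 28.7, 13.5 and 17.3 CPM in thymus and between 85.7 and 246 (median 146) in the periphery (log2 fold change −3.05, SE 0.24, edgeR adjusted p = 1.79e-07). Emb, the membrane glycoprotein embigin, was at 16.7, 27.2, 23.4 and 10.4 CPM in thymus and between 109 and 309 (median 122) in the periphery (log2 fold change −2.98, SE 0.28, edgeR adjusted p = 1.43e-06). Thymus and periphery did not overlap for any of the 3.
Tnfrsf25, the receptor DR3, which costimulates T cells, was between 0.735 and 4.55 CPM in thymus and between 9.14 and 29.7 in the periphery (log2 fold change −2.89, SE 0.43, edgeR adjusted p = 3.05e-04). Dtx1, a Notch pathway gene, was at 25.2, 3.67, 28.6 and 45.1 CPM in thymus, where replicate 4 overlapped the lowest iLN library, and its log2 fold change was −2.54 (SE 0.29, edgeR adjusted p = 1.75e-05). Irak3, a brake on Toll-like receptor signalling, was between 0 and 1.10 CPM in thymus and between 7.80 and 29.2 in the periphery, and its log2 fold change of −5.28 was −4.63 without thymus replicate 1 and −6.40 without thymus replicate 3. Ttn, the gene of the muscle protein titin, was between 0 and 1.9 CPM in thymus and between 6.55 and 80.7 in the periphery (log2 fold change −4.73, and −5.50 without thymus replicate 4). The pseudogene Gm4956 held 4 counts in thymus, all in replicate 1, and 2312 in the periphery (ratio of pooled levels, periphery over thymus, 162, 95% exact interval 63.3 to 596), and its fitted log2 fold change of −6.54 became −9.89 without that library.

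Il2ra is also a marker of regulatory T cells. The 8 marker genes of these cells had a summed level between 298 and 356 CPM in thymus and between 449 and 795 in the periphery, and 2 of them, Il2ra and Ikzf2, were called (0.787% of all genes were called lower). Their defining factor Foxp3 was between 0 and 1.14 CPM in thymus, between 0.301 and 2.24 in spleen, between 0 and 34 in mLN (highest in replicate 2) and between 6.5 and 15.2 in iLN, while Il2ra in spleen was at 103, 138, 118 and 155 CPM. Ikzf2, or Helios, fell by 0.69 on the log2 scale and lost its call without thymus replicate 1, 2 or 4 (−0.72, −0.58 and −0.69).

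**Figure D5:**
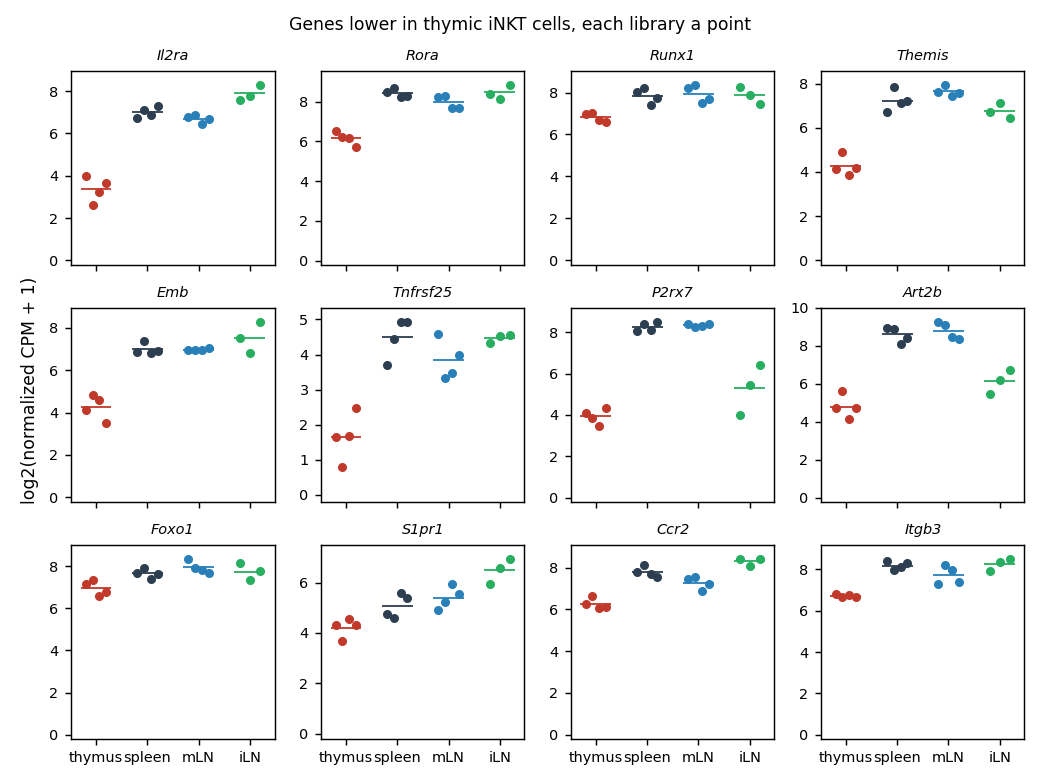
Levels of 12 genes lower in thymus as log2 of normalized CPM plus 1, with 1 point per library and a line at the mean of each tissue. Il2ra, Rora, Runx1, Themis, Emb, Tnfrsf25, S1pr1, Ccr2 and Itgb3 are below all peripheral libraries in every thymus library, while P2rx7, Art2b and Foxo1 have 1 or more thymus libraries within the peripheral range.

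Among 26 tested transcription factors of lineage choice (27 listed), 3 fell in the same direction in all 3 organs (Runx1, Ikzf2 and Bach2) and none rose, beside 0.757% and 1% of all genes (median log2 fold change −0.23). Runx1, a RUNX factor of T cell development, was at 126, 130, 101 and 95.4 CPM in thymus and between 166 and 330 (median 236) in the periphery, without overlap, a difference of −1.10 on the log2 scale (SE 0.12, edgeR adjusted p = 1.42e-05) that was −1.03, −1.13 and −1.15 against spleen, mLN and iLN. Rora (ENSMUSG00000032238, chromosome 9 from 68653786 to 69388246), the nuclear receptor RORα, was at 91.7, 73.5, 70.0 and 52.0 CPM in thymus and between 201 and 461 (median 309) in the periphery, a difference of −2.17 on the log2 scale (SE 0.16, edgeR adjusted p = 1.28e-07). The call of Bach2 was lost without any library but thymus replicate 4, spleen replicate 2, mLN replicate 2 and iLN replicate 3 (log2 fold change between −1.16 and −0.88). Satb1, at 951 CPM in thymus and 896 in the periphery, and Ikzf1, at 771 and 817, were not called.

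The promoters of the genes called against each organ were searched for the RUNX core TGTGGT on both strands, and for the T-box letters TCACACC and the ROR half-site AGGTCA. The windows are those of RefSeq on GRCm38.p6, from 250 bases before to 50 after a start, and were found for 9126 of the genes tested and for 42 of the 51, of which 25 are higher and 17 lower in thymus. The RUNX letters were in 5 of 25 higher genes (20%), in 4 of 17 lower genes (23.5%) and in 15.4% of all genes. The T-box letters were in 1 of 25 and 0 of 17, beside 3.99% of all genes, and the ROR letters in 2 of 25 and 3 of 17, beside 14.9%. Among the 239 genes, windows were found for 102 higher and 71 lower ones. In these sets the RUNX letters were in 24 (23.5%) and 14 (19.7%), the T-box letters in 9 (8.82%) and 3 (4.23%), and the ROR letters in 17 (16.7%) and 13 (18.3%). The windows of Klrk1 (chr6:129623815-129624114), Fcer1g (chr1:171234300-171234599) and Art2b (chr7:101581112-101581411), all on the minus strand, are given as examples of members that hold the RUNX letters, 2 NK receptor genes higher in thymus and 1 gene lower, with those letters (or ACCACA, the same site on the other strand) in capitals.
Klrk1: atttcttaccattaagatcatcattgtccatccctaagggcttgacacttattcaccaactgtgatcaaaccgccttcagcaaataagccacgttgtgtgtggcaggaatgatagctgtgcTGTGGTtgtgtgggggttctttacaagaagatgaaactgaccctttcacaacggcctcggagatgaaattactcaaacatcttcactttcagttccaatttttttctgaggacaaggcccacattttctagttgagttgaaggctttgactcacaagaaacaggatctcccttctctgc
Fcer1g: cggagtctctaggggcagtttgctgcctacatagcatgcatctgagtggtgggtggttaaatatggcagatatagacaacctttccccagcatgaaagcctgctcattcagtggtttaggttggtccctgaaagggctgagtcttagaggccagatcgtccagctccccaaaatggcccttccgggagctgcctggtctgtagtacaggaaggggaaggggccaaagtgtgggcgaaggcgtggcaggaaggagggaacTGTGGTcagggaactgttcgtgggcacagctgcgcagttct
Art2b: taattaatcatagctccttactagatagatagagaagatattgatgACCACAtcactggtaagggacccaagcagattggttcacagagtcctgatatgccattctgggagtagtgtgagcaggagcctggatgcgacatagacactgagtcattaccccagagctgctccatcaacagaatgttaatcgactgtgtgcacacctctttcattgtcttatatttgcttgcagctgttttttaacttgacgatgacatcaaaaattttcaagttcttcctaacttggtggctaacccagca
Each of the 3 windows holds 1 match. A match is a stretch of letters only, and no binding was measured.

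Receptors for chemokines, cytokines and costimulation held called genes of both directions. Of 16 tested chemokine receptor genes (20 listed) 1 rose and 3 fell, beside 1% and 0.757% of all genes (median −0.82). Ccr2 was at 74.4, 98.5, 65.8 and 67.3 CPM in thymus and between 115 and 342 (median 204) in the periphery (log2 fold change −1.57, SE 0.13, edgeR adjusted p = 6.09e-07), and was called against each organ. For Ccr8, higher in thymus, and Ccr9, lower, thymus and iLN differed by 0.02 and 0.00 on the log2 scale, and neither was called against iLN. Ccr9, the gut homing receptor, was highest in mLN, at 336 ± 103 CPM (SD, n = 4), against 65.0, 60.3, 22.6 and 16.9 CPM in thymus, a mean above that of iLN, at 46.5, 26.8 and 28.6 CPM.
Of 26 tested cytokine receptor genes (30 listed) 3 rose (Il12rb2, Il18rap and Ifngr1) and 3 fell (Il2ra, Il6ra and Il6st), beside 1% and 0.757% of all genes, and the median was −0.17. Ifngr1, a chain of the interferon-γ receptor, was at 159, 228, 229 and 250 CPM in thymus and between 52.1 and 172 in the periphery (log2 fold change 1.24, SE 0.17, edgeR adjusted p = 1.29e-04). Il7r, the survival receptor of mature T cells, was at 734 CPM in thymus and 793 in the periphery and was not called. The organs differed in Il7r, with thymus (between 568.8 and 926.6 CPM) above spleen (441.8 to 547.9) and below iLN (985.6 to 1631). In mLN it was between 478.7 and 774.8 CPM. The call of Il6st was lost without thymus replicate 1, 2 or 3 (log2 fold change −0.86, −0.98 and −1.02), and that of Il6ra as given above.
Of 22 tested costimulatory and inhibitory receptor genes (23 listed) 4 fell (Cd96, Cd226, Tnfrsf9 and Tnfrsf25) and none rose, beside 0.757% and 1% of all genes (median −0.25). Cd96 and Cd226 bind the same nectin-like ligand. Cd96 was at 96.6, 92.6, 106 and 97.3 CPM in thymus and between 115 and 268 (median 192) in the periphery (log2 fold change −0.93, SE 0.12, edgeR adjusted p = 5.84e-05), and Cd226 was between 60.9 and 112 CPM in thymus and between 91.0 and 229 in the periphery (log2 fold change −0.88, SE 0.14, edgeR adjusted p = 6.15e-04). The call of Tnfrsf9 was lost without any one thymus library (log2 fold change between −1.60 and −1.38). Cd28, at 516 CPM in thymus and 529 in the periphery, and Icos, at 407 and 521, were not called. Icos was between 312.9 and 476.3 CPM in thymus, between 225.3 and 356.5 in spleen and between 786.7 and 1012 in iLN.

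The most abundant genes among the 239 moved by smaller amounts. On the higher side they were Ugcg, AU020206, Ssh2, Ctsd and Klrb1c. Ugcg, which makes glucosylceramide, the first step to most glycosphingolipids, was at 1217, 1089, 1184 and 1104 CPM in thymus and between 369 and 691 (median 504) in the periphery, without overlap, and was called against each organ (log2 fold change 1.11, SE 0.12, edgeR adjusted p = 5.41e-06). Ssh2, a phosphatase that acts on cofilin, was close to thymus in iLN only (log2 fold change 0.98, SE 0.09, edgeR adjusted p = 1.17e-06, and 0.29 against iLN). On the lower side they were Gm26809, Thy1, Cxcr6, Rbl2 and Lyst. Lyst, which sorts lysosomes and lytic granules, was between 217 and 269 CPM in thymus and between 280 and 749 in the periphery (log2 fold change −0.88, SE 0.13, edgeR adjusted p = 1.89e-04). Rbl2, the pocket protein p130 of quiescent cells, was at 245, 229, 247 and 241 CPM in thymus and between 394 and 656 (median 456) in the periphery (log2 fold change −1.06, SE 0.11, edgeR adjusted p = 6.63e-06). The call of Ctsd was lost without any library but spleen replicate 3, mLN replicates 2 and 4 and iLN replicates 3 and 4 (log2 fold change between 0.64 and 0.73). That of Thy1 was lost without any one thymus library, mLN replicate 1 or iLN replicate 2 (between −0.64 and −0.57), and that of AU020206 without thymus replicate 3 or 4 (0.59 and 0.55).

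Few genes of the other lists were called in edgeR, where 1% of all genes rose and 0.757% fell in the same direction in all 3 organs. Bcl2, the survival factor, was at 480, 363, 317 and 344 CPM in thymus and between 120 and 309 (median 171) in the periphery, without overlap, a difference of 1.07 on the log2 scale (SE 0.14, edgeR adjusted p = 9.84e-05). It was the 1 gene called of 14 tested in its family (17 listed), and Mcl1, at 224 CPM in thymus and 239 in the periphery, was not called. Of 22 tested immediate early and TCR response genes (25 listed) Myc rose and Jun fell (11 had an unadjusted p under 0.05 in edgeR, and DESeq2 called 7), and Egr1 was at 83.1 CPM in thymus and 80.9 in the periphery. This peripheral mean joins organs at different levels. Egr1 was between 77.18 and 90.34 CPM in thymus and between 34.65 and 48.59 in spleen, without overlap. In mLN it was between 56.44 and 117.8 CPM and in iLN between 75 and 126.6. The calls of Myc and Jun were lost without any one thymus library (log2 fold changes between 0.96 and 1.17 and between −4.33 and −3.91). Of 39 interferon-stimulated genes 3 rose (Mx1, Oas3 and Ifi213, with a list median of 0.39), and their calls rested on single libraries. On this list 22 genes had an unadjusted p under 0.05 in edgeR, and DESeq2 called 7. That of Mx1 was lost without any library but spleen replicate 2, mLN replicate 4 and iLN replicate 3 (log2 fold change between 2.07 and 3), that of Oas3 without thymus replicate 1 or 2 (0.90 to 1.02) and that of Ifi213 without thymus replicate 1, 3 or 4 (0.67 to 0.80). Of 8 GIMAP genes, GTPases of lymphocyte survival, Gimap7 fell (log2 fold change −2.35, SE 0.27, edgeR adjusted p = 1.42e-05), and its sister gene Gimap4 was at 623 CPM in thymus and 725 in the periphery. Gimap7 was between 5.8 and 22.2 CPM in thymus and between 17.61 and 29.93 in iLN, with overlap. In spleen and mLN it was at least 81.04 CPM. Gimap4 was between 516 and 765.7 CPM in thymus, lower in iLN (322.2 to 423.2) and at least 801.6 in spleen and mLN. None of the 26 tested cell cycle genes (30 listed) and none of the 14 tested heat-shock genes (18 listed) was called in edgeR or DESeq2, with medians of 0.28 and 0.03 and with 5 and 2 genes at an unadjusted p under 0.05 in edgeR. Ccnd2 was at 829 CPM in thymus and 722 in the periphery, and Hspa8 at 1602 and 1334. Of 14 tested cytokine genes (25 listed) Xcl1 rose and Ccl5 fell, as given above.

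Levels of markers of other cell types are given beside the lower genes. The 12 B cell markers had a summed level between 99.2 and 149 CPM in thymus and between 147 and 471 in the periphery, highest in spleen, and Pax5 and Ebf1 had no count in thymus. Ighm alone was between 76.4 and 141 CPM in thymus and between 135 and 233 in the periphery. The 15 markers of macrophages and dendritic cells were between 19.4 and 50.8 CPM in thymus and between 24.0 and 105 in the periphery, with C1qa, Batf3, Clec9a and Siglech at no count in thymus. Cst3 alone was between 13.95 and 36.05 CPM in thymus and between 9.21 and 45.5 in the periphery. Lyz2 was between 0 and 0.735 CPM in thymus and between 0.538 and 43.1 in the periphery. Of the 8 and the 6 that passed the filter none was called in edgeR (3 and 1 had an unadjusted p under 0.05), and DESeq2 called 1 of each. Their part in the lower genes was not tested. Cd72 and Pou2f2, which B cells also use and which were named after their values were seen, were among those lower genes, at between 7.35 and 19.0 and between 3.67 and 4.81 CPM in thymus and between 24.2 and 61.2 and between 13.8 and 52.9 CPM in the periphery. Markers of granulocytes, red cells, platelets, stroma and γδ T cells held no gene called in edgeR or DESeq2 (2, 1 and 1 genes of red cells, stroma and γδ T cells had an unadjusted p under 0.05 in edgeR). Their summed levels overlapped between thymus and the pooled periphery, but not with each organ. The red cell sum was between 3.04 and 15.2 CPM in thymus, between 25 and 119 in spleen and at most 4.84 in the LNs. The stroma sum was between 27.5 and 56.9 CPM in thymus and between 34.3 and 57.1 in spleen, but between 67.9 and 102 in mLN and between 66 and 76.1 in iLN. Nearly all of it was Pecam1, at between 26.6 and 56.8 CPM in thymus and between 67.9 and 101.9 in mLN. Col3a1, Dcn, Lyve1, Pdgfra and Pdgfrb had no count in any library, so this sum describes Pecam1 rather than stroma. The platelet sum was between 0.379 and 3.58 CPM in thymus and at most 0.271 in iLN.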

How the data were processed

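RNA of sorted iNKT cells was made into NuGEN Ovation libraries and sequenced by the authors, who trimmed reads with cutadapt 1.7.1 and quantified them with RSEM 1.2.31 and Bowtie2 2.2.9 on GRCm38. The authors deposited, for each library, the expected count (an estimated count of fragments per gene, not normalized), TPM and FPKM. The deposited TPM and FPKM values were not used here. Expected counts were rounded to whole numbers. Reads shared by near-identical genes are split by RSEM's model.

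Of 48795 genes, 13600 passed edgeR's filterByExpr. TMM normalization and edgeR's quasi-likelihood test (edgeR 4.0.16, limma 3.58.1, R 4.3.3) were used with tissue and batch as factors, over all 15 libraries, with Benjamini-Hochberg adjustment over all genes tested. Levels are normalized CPM. The procedure was tested on simulated data. Figures were drawn with matplotlib 3.10.9. Replicates 1 and 2 form 1 batch and 3 and 4 the other, and each tissue has libraries in both. If replicates are pools or share animals, p-values measure only the spread between these samples. Intervals and floors (3 counts) cover counting error only.

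Named were the 10 highest and 10 lowest genes by log2 fold change among those called against each organ with a mean of at least 10 CPM on the higher side, the 5 most abundant on each side of the genes with the same direction, list members with the same direction, and up to 4 abundant further members per list. The members and lists were chosen with earlier results of these data known, and 2 list genes given under other symbols (Zfp683 and Scart2) were matched to the files later. Results of some genes are not reported here. Alternatives were another normalization, DESeq2 1.42.0, other filters, no batch term, the replicate block, thinned libraries, rRNA genes removed, other weights, a threshold of 0.05, single batches and leaving out each library.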

Additional observations from a re-analysis of the deposited data

Results flagged for a closer look

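In 258 tissue groups of 4 libraries, checked over 86 named genes, 27 single libraries stood apart from the other libraries of their tissue by Dixon's criterion. Chance alone marks about 1 in 20 groups. The iLN group, with 3 libraries, was not checked. Values are normalized CPM. In these cases the other libraries of the tissue were at 0, so that a few counts in 1 library decided the mark: Tjp1 in spleen replicate 4 (0.407), Tjp1 in mLN replicate 2 (0.145), Rag1 in spleen replicate 2 (0.15), Cd244a in spleen replicate 1 (0.0987), Klra13-ps in mLN replicate 1 (0.13), Klra5 in mLN replicate 3 (0.832), Klra6 in mLN replicate 4 (0.193), Gm4956 in thymus replicate 1 (0.494), Klrc3 in mLN replicate 1 (0.908) and Gzmc in mLN replicate 2 (0.29). In thymus, the library above the others was Ahr at 49.5 in replicate 1 (others 35 to 37.2) and Gzmb at 390 in replicate 1 (others 259 to 278). In spleen, the library above the others was Styk1 at 2.74 in replicate 3 (others 0.601 to 0.814), Emb at 163 in replicate 2 (others 110 to 119), Klf3 at 601 in replicate 4 (others 465 to 471) and Klrc2 at 119 in replicate 1 (others 76.1 to 81.2). In mLN, the library above the others was Fgd5 at 11 in replicate 4 (others 0.389 to 1.02), Cd226 at 187 in replicate 1 (others 130 to 135), Klf3 at 413 in replicate 1 (others 268 to 288), Gzmb at 16.5 in replicate 1 (others 0.416 to 3.08), Klra7 at 3.08 in replicate 4 (others 0 to 0.389), Klrc1 at 18 in replicate 1 (others 6.74 to 8.56), Tnfsf10 at 151 in replicate 2 (others 78.9 to 88.4) and Jun at 41.4 in replicate 2 (others 4.05 to 10.2). The libraries below the others of their tissue were Cdh1 at 0 in spleen replicate 4 (others 0.249 to 0.301), Gzmc at 2.21 in thymus replicate 2 (others 5.51 to 6.17) and Tnfrsf9 at 41.6 in mLN replicate 1 (others 90.3 to 92.7).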

How the results depend on the processing

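Counts are given as total (higher, lower), first for genes called against the mean, then for the same direction in all organs, then against each organ. DESeq2 gave 416 (205, 211), 404 (197, 207) and 102 (57, 45). Without a filter on low counts, over 24238 genes, they were 515 (275, 240), 488 (259, 229) and 110 (59, 51). With at least 10 counts in every sample, over 7827 genes, 179, 173 and 32 (17, 15). Without a batch term, 184, 179 and 30 (17, 13). With libraries thinned to the smallest, over 10581 genes, 118 (70, 48), 112 (67, 45) and 20 (11, 9). At an adjusted p under 0.05, 425 (232, 193), 412 (224, 188) and 97 (52, 45). Batch 1 alone gave 117 (71, 46), 116 (70, 46) and 9 (4, 5), and batch 2 alone 41 (25, 16), 38 (24, 14) and 5 (2, 3), both with fewer libraries. The other causes were not tested. RLE normalization, removal of rRNA genes and organs weighted by their number of samples kept all counts within 1.5 times.

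Leaving out 1 library gave 158 to 269 (91 to 156, 65 to 118), 153 to 257 (88 to 149, 63 to 113) and 25 to 55 (12 to 33, 11 to 23). Counts moved by over 1.5 times without thymus replicates 1, 2, 3 or 4, and for the genes higher against each organ also without spleen replicate 4 (18). All of the 239 genes that were tested kept their sign in each of these settings. Of 2309 values of the 87 named genes, 2033 kept their call, 276 lost it and 0 changed sign, and 25 genes lost the call without some library.

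Fitting a replicate block instead of the batch gave 239 (132, 107), 234 (131, 103) and 43 (22, 21). The calls of Bach2, Gzmc, Ifi213, Il6ra and Mx1 were lost under this block. The labels also give libraries of the same number in different tissues 1 unit tag, without saying what a unit is. Libraries of the same number correlated at a mean r of 0.138 (lowest 0.000402, highest 0.301) in their deviations, against 0.125 for other numbers of the same batch. Of 15 libraries, 11 correlated best with a library of their own number in another tissue. A pairing by number is therefore possible, but the main fit used the batch only, since the labels do not say what a unit is.

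A thymus by batch interaction, tested after seeing the data, was called for 0 genes in edgeR (380 at an unadjusted p under 0.05). It was not run in DESeq2. Thymus replicate 2, with 1152702 counts, limits the genes of low level.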

Other observations

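The genes below are in none of the lists and were chosen after their values were seen. Fgl2, a fibrinogen-like protein with immune regulatory roles, was between 367 and 464 CPM in thymus and between 49.1 and 112 in the periphery (log2 fold change 2.38, SE 0.17, edgeR adjusted p = 6.28e-08), and was called against each organ at 2.34, 2.39 and 2.40. Cd7, a surface protein of T and NK cells, was between 113 and 230 CPM in thymus and between 0.519 and 58.8 in the periphery (log2 fold change 2.89, SE 0.40, edgeR adjusted p = 1.62e-04). Ptpn6, the phosphatase SHP-1 that acts below inhibitory receptors, rose by 1.54 (SE 0.17, edgeR adjusted p = 1.00e-05) and was called against each organ. Hhex, a homeobox factor, was between 42.7 and 68.9 CPM in thymus and between 0 and 10.8 in the periphery.

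Vim, the filament protein vimentin, and Capg, an actin-capping protein, had log2 fold changes of 2.58 and 3.02, but only 0.64 and 0.77 against iLN. On the lower side Rasgrp1, which couples the T cell receptor to Ras, was between 155 and 255 CPM in thymus and between 295 and 529 in the periphery, without overlap (log2 fold change −0.94, SE 0.12, edgeR adjusted p = 6.32e-05), and was called against each organ. Igf1r, the insulin-like growth factor receptor, had a log2 fold change of −2.47 that was −0.47 against spleen, −2.36 against mLN and −4.56 against iLN. Nr1d1, the clock repressor REV-ERBα, was between 0.735 and 8.54 CPM in thymus and between 13.1 and 121 in the periphery, without overlap.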
